A study of Mus musculus with 6 samples.

Results

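The *Nduf* genes encode most subunits of respiratory complex I (NADH:ubiquinone oxidoreductase) and several of the proteins that assemble it. Members were all genes whose symbol starts with *Nduf* in the deposited table of transcript abundance, which gave 45 of 52089 symbols. Complex I takes electrons from NADH, passes them along iron-sulfur clusters of its peripheral arm to ubiquinone, and pumps protons through its membrane arm. A conserved core is surrounded by accessory subunits, the core of the membrane arm is encoded by mitochondrial DNA, and assembly factors join the modules without staying in the finished enzyme. In brite adipocytes, thermogenic cells that form within white fat, respiration feeds the proton gradient that uncoupling protein 1 turns into heat.

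The data were 6 libraries of primary brite adipocytes, 3 after *Ctcflos* KD and 3 controls, and they address what loss of this long noncoding RNA does to differentiating thermogenic fat cells. Preadipocytes came from the stromal-vascular fraction of inguinal white fat of 129SvEv mice (young males by the methods of the study), were induced for 2 days, and were differentiated for 1 day. All cultures of both groups received rosiglitazone and 50 nM of an LNA Gapmer antisense oligonucleotide, which targeted *Ctcflos* in the KD group (ASO1, directed at its transcript 1) and had no target in the control group. Cells were harvested 24 h after transfection, and the labels do not say whether the 3 libraries of a group came from separate cultures or animals. Values are RPKM, that is, the reads of a transcript scaled to its length and to the mapped reads of the library, averaged over all transcript rows of a symbol.

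*Ctcflos*, listed as *1300015D01Rik*, stood at 0.0969, 0.0705 and 0.210 RPKM in the KD libraries and at 0.748, 0.751 and 0.840 RPKM in the controls. No KD value reached a control value, and the KD mean was 16.1% of the control mean. The limma log2 fold change without a filter on low values was -0.66, with an adjusted p of 0.0254. In that fit 2.76% of all genes were called lower. The call was lost when any single library except KD replicate 3 was left out, with values between -0.72 and -0.63 over all 6 such fits.

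Depth, as recovered from the RPKM values, was 60.8 to 75.5 mio reads in KD and 62.9 to 79.2 mio reads in control libraries. The methods of the study name fewer reads per sample, and the reason for the difference was not tested. Adipocyte markers fitted the labelled cell type in both groups, with a summed level of 3948 to 5304 RPKM in KD and 5602 to 6229 RPKM in controls over 6 of 6 genes. Brite markers, also 4 of 4 genes and mostly *Ucp1*, summed to 17.9 to 34.8 RPKM in KD and 35.4 to 84.3 RPKM in controls. Of these genes only *Ucp1* had every KD library below every control, and the groups of *Cidea* and *Cox7a1* overlapped. *Dio2* went the other way at a low level, with 0.347, 0.589 and 0.293 RPKM in KD and 0.128, 0.206 and 0.256 RPKM in controls. Control replicate 2 stood apart from the other controls. It had the lowest brite sum of the controls (35.4 RPKM, against 84.3 and 70.3), the highest smooth muscle sum (86.4 RPKM over 3 genes, nearly all *Acta2*, against 17.6 to 49.6 in all other libraries) and the highest immune sum (25.4 RPKM over 3 of 4 genes, nearly all *Lyz2*, against 2.55 to 13.9). KD replicate 3 differed from KD replicates 1 and 2 in these sums, with 17.9 RPKM for brite markers (against 33.7 and 34.8), 49.6 for smooth muscle (against 17.6 and 23.2), 13.9 for immune (against 2.55 and 3.18) and 179 for progenitor markers (mostly *Ly6a*, against 345 and 398). *Ptprc*, a defining immune marker, was at most 0.0486 RPKM in every library. *Csf1r*, the remaining gene of the immune sum, had every KD library above every control. It was 1.31, 1.48 and 1.10 RPKM in KD and 0.269, 0.833 and 0.438 RPKM in controls, with KD replicate 3 the lowest of the KD libraries. Endothelial markers summed to at most 1.35 RPKM over 4 genes and skeletal muscle markers to at most 4.79 RPKM over 3 genes. Progenitor markers summed to 179 to 398 RPKM in KD and 274 to 449 RPKM in controls over 5 genes, mostly *Ly6a*. Among them *Pdgfra* was 12.2, 13.1 and 14.0 RPKM in KD and 21.0, 19.7 and 24.6 RPKM in controls, whereas the groups of the other progenitor markers overlapped. The part of cell composition in the results was not tested, and in bulk RNA fewer cells of a type and less RNA per cell cannot be told apart.

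Of the 45 *Nduf* genes, 43 reached the mean of 1 RPKM required for a test. After *Ctcflos* KD, 6 of these 43 (14.0%) were called lower by limma at an adjusted p under 0.05, beside 12.4% of all 11701 genes tested. No member was called higher, beside 11.5% of all genes, and the 4 members with a positive log2 fold change all had an unadjusted p above 0.05. Thus the share of *Nduf* genes called lower was near the background. An unadjusted p under 0.05 was found for 13 members (30.2%, beside 38.9% of all genes), all with a negative log2 fold change. The 6 called genes were *Ndufs4*, *Ndufaf3*, *Ndufv3*, *Ndufs8*, *Ndufb3* and *Ndufb5*.

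**Figure D1:**
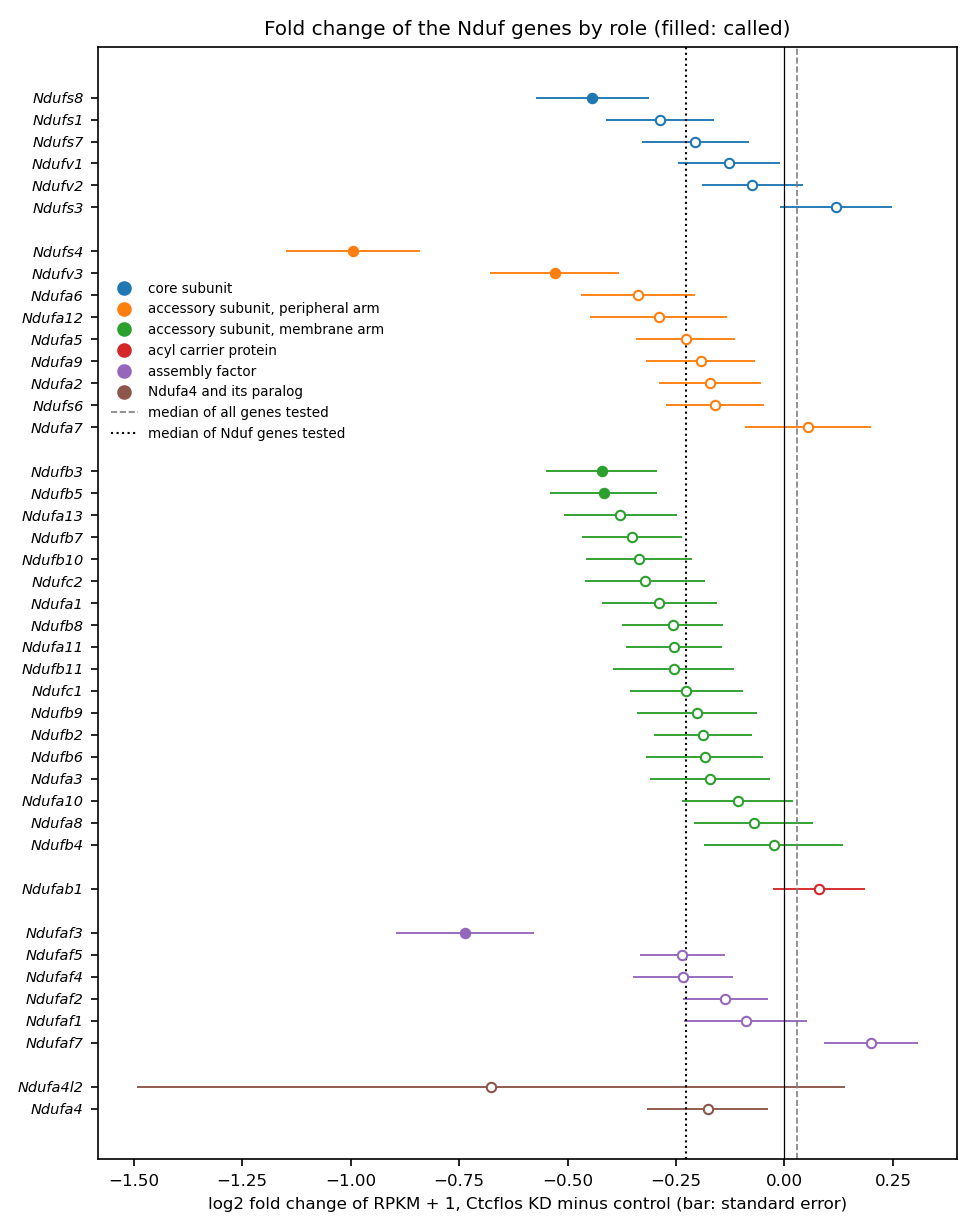
Log2 fold change of RPKM + 1 (x axis, KD minus control) of the tested *Nduf* genes reported here (rows, grouped and coloured by role), with bars for the standard error and filled points for genes called by limma. Most genes lie left of 0, the dotted line marks the median of -0.23 over all 43 tested members, and *Ndufs4* lies lowest at -0.99.

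Small negative differences were common across the family. The log2 fold change was negative in 39 of 43 members (90.7%), against 46.8% of all genes tested. The median was -0.23 in the family and 0.03 over all genes. In 19 of 43 members (44.2%) every KD library lay below every control library, beside 21.9% of all genes. No member lay above every control in all KD libraries, beside 22.9% of all genes. Members share libraries and are not independent replicates of the KD.

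The level of the family in control replicate 2 was that of the KD libraries. Summed over the 43 tested members, the 3 KD libraries held 1145, 1204 and 1141 RPKM, and the controls held 1475, 1205 and 1483 RPKM. The highest KD sum and the sum of control replicate 2 were nearly equal, and controls 1 and 3 lay well above both. Control replicate 2 was the lowest of the controls in 43 of 43 members, whereas this held for 51.3% of all genes. KD replicates 1, 2 and 3 lay below it in 25, 23 and 29 of the 43 members. Every KD library was below both controls 1 and 3 in 34 members (79.1%), compared with 29.2% of all genes. These 2 controls were picked after the values were seen. Leaving out the lowest control of every member raises the share of the family by construction, so these shares cannot be compared as evidence. The fit without control replicate 2 has the same limit. Without control replicate 2, 5 members were called lower (11.6%, beside 8.19% of all genes), the median was -0.29, and 40 of 43 log2 fold changes were negative. The brite, smooth muscle and immune sums given above moved in the same library, and their part in the level of the *Nduf* genes was not tested.

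**Figure D2:**
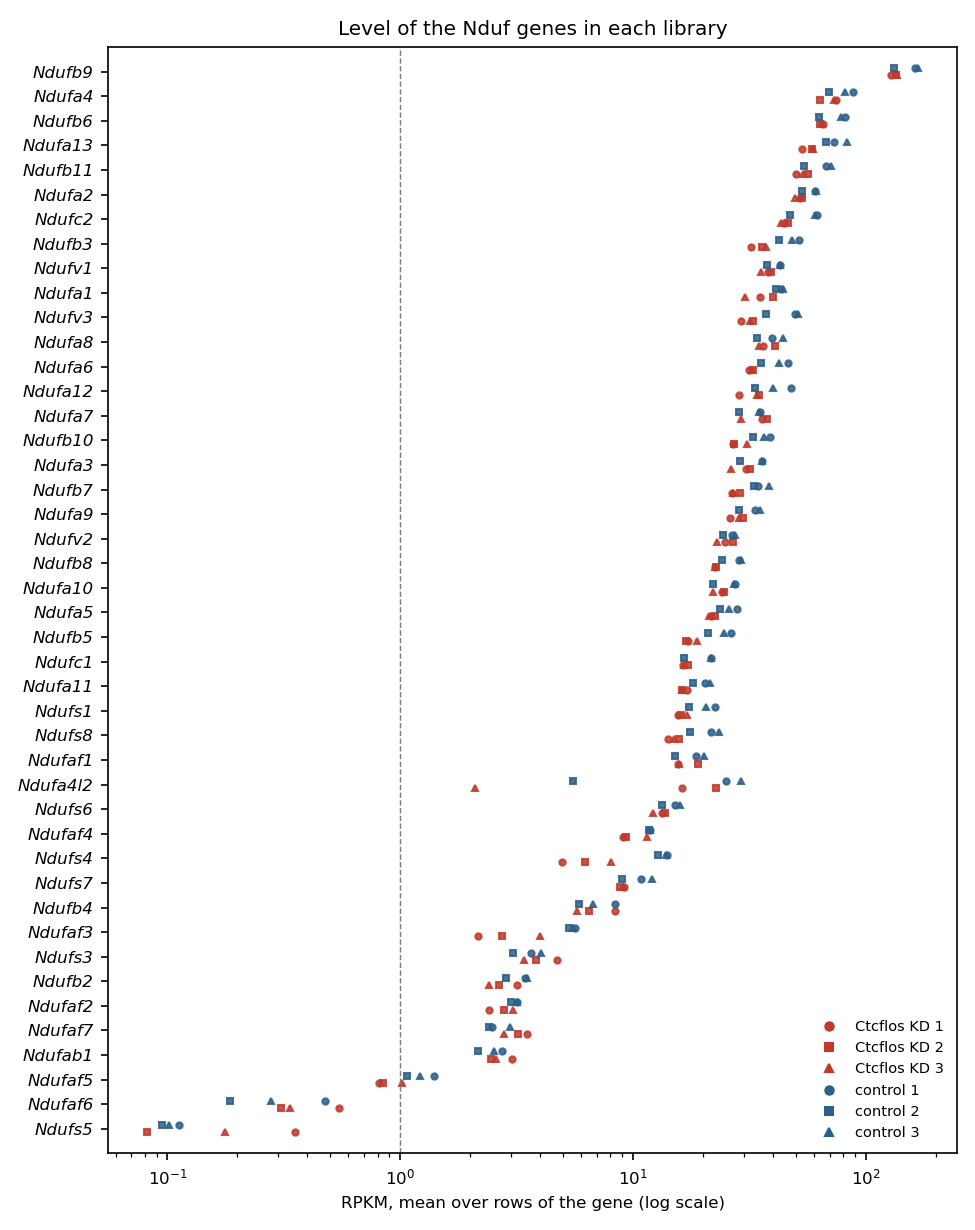
RPKM of the *Nduf* genes reported here (rows, ordered by mean level, log scale on the x axis) in each KD library (red) and each control library (blue), with the dashed line at the mean of 1 RPKM required for a test. Control 2 (blue square) is the lowest control in each tested gene shown, and *Ndufs5* and *Ndufaf6* lie left of the line.

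The count of called members rested on several libraries. It was 2 (4.65%) without KD replicate 1, 1 (2.33%) without KD replicate 2, 1 (2.38%) without control replicate 1 and 1 (2.33%) without control replicate 3. The share of all genes called lower also moved, to 6.22%, 5.51%, 2.47% and 2.04% in these fits. *Ndufs4* was the member called in each of these fits, and *Ndufaf3* was the other one called without KD replicate 1. Without KD replicate 3 the count was 8 (18.6%, beside 17.8% of all genes), with *Ndufaf4* and *Ndufb10* added to the 6.

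*Ndufs4*, an accessory subunit of the peripheral arm that is added late in assembly and is mutated in Leigh syndrome, differed most. It stood at 4.97, 6.21 and 8.06 RPKM in the KD libraries and at 14.0, 12.8 and 13.9 RPKM in the controls. The groups were far apart, with the highest KD value well under the lowest control value, control replicate 2 lay close to the other controls, and KD replicate 3 was the highest KD library. The mean fell from 13.6 ± 0.662 (SD, n = 3) to 6.41 ± 1.55 RPKM (SD, n = 3), which is 47.3% of control. By limma, the log2 fold change was -0.99 ± 0.16 (SE) with an adjusted p of 0.00746. It was called under all 14 alternative settings, with adjusted p from 0.00061 to 0.0490. All 5 transcript rows of the gene had every KD library below every control, and their KD means were 46.1% to 57.2% of control, so that no row moved against the gene. *Ndufs4* spans 100464 bases at chr13:114287795-114388258 on the minus strand (GRCm38, Gencode vM21), overlaps no other gene of the annotation, and shares no 50-base window of its longest coding transcript with another gene.

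The sequences before the RefSeq start sites of *Ndufs4* and *Ndufaf3* are shown because these genes had the largest called differences of the family. Both are the 250 bases before the RefSeq start site (GRCm38.p6), read 5′ to 3′ on the minus strand, at chr13:114388095-114388344 for *Ndufs4* and at chr9:108567437-108567686 for *Ndufaf3*. In Gencode vM21 *Ndufs4* begins further upstream, at chr13:114388258, so part of its stretch lies inside that gene, whereas that of *Ndufaf3* does not. None of the motifs described further on occurs in either stretch.
Ndufs4: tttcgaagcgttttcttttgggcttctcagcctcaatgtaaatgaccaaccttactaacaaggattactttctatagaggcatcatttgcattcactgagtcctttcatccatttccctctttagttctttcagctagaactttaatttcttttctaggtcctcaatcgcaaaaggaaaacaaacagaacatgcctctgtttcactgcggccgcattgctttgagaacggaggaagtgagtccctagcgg
Ndufaf3: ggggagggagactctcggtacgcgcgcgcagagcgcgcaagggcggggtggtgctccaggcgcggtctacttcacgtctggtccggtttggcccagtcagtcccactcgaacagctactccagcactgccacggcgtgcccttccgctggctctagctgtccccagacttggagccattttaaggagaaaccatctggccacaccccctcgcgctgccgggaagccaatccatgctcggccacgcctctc
GC content over the whole promoter window of 250 bases before to 50 bases after the start site was 45.3% for *Ndufs4* and 66.0% for *Ndufaf3*.

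*Ndufaf3*, an assembly factor that works with *Ndufaf4* on early intermediates, was 2.17, 2.73 and 3.98 RPKM in KD and 5.65, 5.30 and 5.50 RPKM in controls. The groups did not overlap, the controls lay close together, and KD replicate 3 was again the highest KD library. The mean was 54.0% of control, with a log2 fold change of -0.74 ± 0.16 (SE) and an adjusted p of 0.0173 by limma. It was called under 9 of 13 alternative settings, and the adjusted p ranged from 0.00077 to 0.0752. Its 3 transcript rows had KD means of 53.7% to 54.2% of control. The gene lies at chr9:108565537-108567434 on the minus strand and overlaps *Impdh2*, an enzyme of guanine nucleotide synthesis, on the opposite strand. *Impdh2* moved the other way, from 11.1, 15.0 and 12.8 RPKM in controls to 24.3, 29.4 and 21.6 RPKM in KD (log2 fold change 0.90, adjusted p 0.00925 by limma). The library kit keeps the strand, but no source used here states that the counting did, so the value of *Ndufaf3* is uncertain where both genes overlap.

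*Ndufv3*, an accessory subunit at the NADH-binding tip of the peripheral arm, was 29.2, 32.8 and 31.9 RPKM in KD and 49.5, 37.3 and 51.3 RPKM in controls. The KD libraries were close to each other, and control replicate 2 lay between them and the other controls. The KD mean was 68.0% of control, with a log2 fold change of -0.53 ± 0.15 (SE) and an adjusted p of 0.0373 by limma. The 2 curated RefSeq transcripts of the gene changed alike, at 67.2% and 68.0% of control. Of its 7 rows, 5 had KD below every control, and the other 2 rows were clones of low level that overlapped.

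*Ndufs8*, a core subunit that carries iron-sulfur clusters close to the ubiquinone site, was the 1 called member among the 7 core subunits. Its values were 14.2, 15.7 and 15.1 RPKM in KD and 21.6, 17.7 and 23.4 RPKM in controls. The groups did not overlap, with control replicate 2 nearest to the KD libraries. The KD mean was 71.9% of control, and limma gave a log2 fold change of -0.44 ± 0.13 (SE) with an adjusted p of 0.0426.

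*Ndufb3* and *Ndufb5* are accessory subunits of the distal membrane arm. *Ndufb3* was 32.2, 35.9 and 37.4 RPKM in KD and 51.6, 42.5 and 48.4 RPKM in controls (log2 fold change -0.42 ± 0.13 SE, adjusted p 0.0470 by limma). *Ndufb5* was 17.2, 16.9 and 18.8 RPKM in KD and 26.3, 21.1 and 24.6 RPKM in controls (log2 fold change -0.42 ± 0.12 SE, adjusted p 0.0427 by limma). In both genes the lowest control was replicate 2, which still lay above every KD library. *Ndufb5* overlaps *Mrpl47* on the opposite strand, and *Mrpl47* was not called (log2 fold change 0.13, adjusted p 0.309). *Ndufb5* shares 16.2% and *Ndufb3* 6.72% of its 50-base windows with another annotated gene, whereas *Ndufaf3*, *Ndufv3* and *Ndufs8* share none. Windows were compared on both strands and can also be shared by genes that overlap. Reads from these stretches may not be placed with certainty, which was not tested. The calls of *Ndufv3*, *Ndufs8* and *Ndufb5* held under 7 of 14 alternative settings each and that of *Ndufb3* under 5 of 14, with the highest adjusted p between 0.151 and 0.180.

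**Figure D3:**
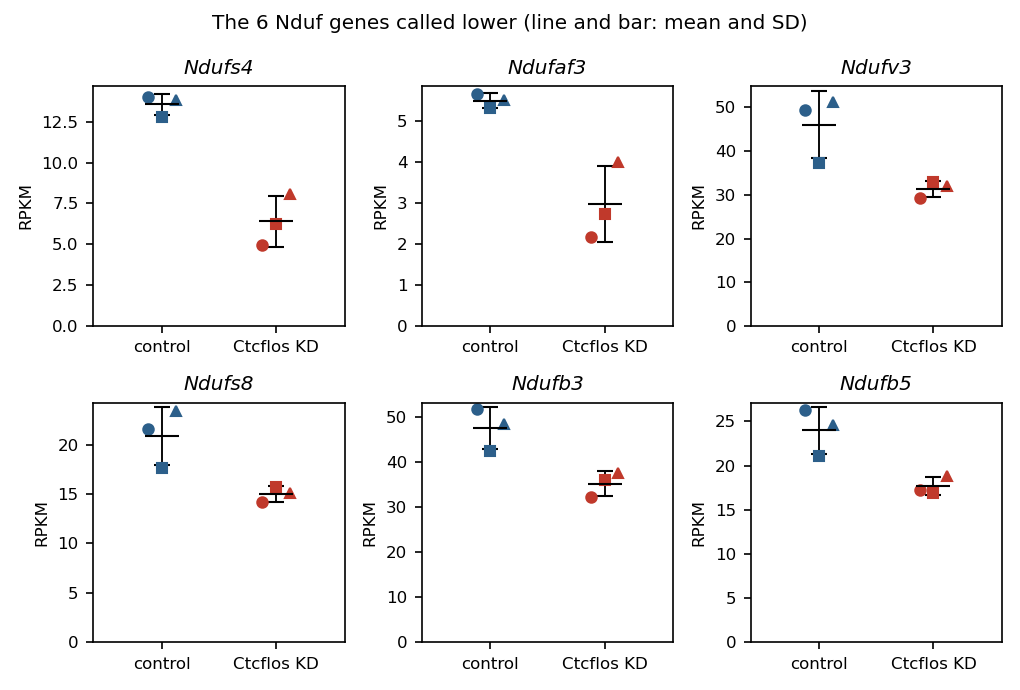
RPKM (y axis, from 0) of the 6 *Nduf* genes called lower in the 3 controls (blue) and the 3 KD libraries (red), with circles, squares and triangles for replicates 1, 2 and 3 and lines and bars for the mean and SD. No KD value overlaps a control value, and the lowest control is replicate 2 in each gene.

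The accessory subunits of the membrane arm were the largest group, with 18 of 19 members tested. In all 18 the log2 fold change was below 0, from -0.42 to -0.02 around a median of -0.26, and 2 were called (11.1%, beside 12.4% of all genes called lower). The most abundant *Nduf* gene, *Ndufb9*, belongs to this group. It was 128, 135 and 136 RPKM in KD and 162, 132 and 168 RPKM in controls, so that control replicate 2 fell among the KD values (log2 fold change -0.20, adjusted p 0.311 by limma). *Ndufb6* was 65.5, 63.7 and 64.8 RPKM in KD and 81.1, 63.2 and 78.0 RPKM in controls, and *Ndufb11* was 50.4, 56.6 and 53.6 RPKM in KD and 67.5, 54.5 and 71.2 RPKM in controls. In both genes controls 1 and 3 exceeded every KD library and control 2 did not. *Ndufa13*, also known as a cell death regulator, was 53.1, 58.6 and 59.6 RPKM in KD and 73.0, 67.8 and 83.4 RPKM in controls. Its groups did not overlap, and it missed the threshold (log2 fold change -0.38, adjusted p 0.0673 by limma). *Ndufa3* was 30.5, 31.8 and 26.4 RPKM in KD and 35.9, 28.7 and 35.9 RPKM in controls (log2 fold change -0.17, adjusted p 0.382). The smallest differences of the group were those of *Ndufb4* at -0.02 and *Ndufa8* at -0.07, both with overlapping groups. *Ndufb4* and *Ndufb6* share 37.0% and 34.1% of their 50-base windows with other genes. For *Ndufa13*, *Ndufb9* and *Ndufb11* the shares are 28.5%, 23.4% and 17.5%.

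*Ndufs5* belongs to the membrane arm as well and had a mean of only 0.154 RPKM, below the filter. It stood at 0.355, 0.0816 and 0.177 RPKM in KD and at 0.112, 0.0949 and 0.101 RPKM in controls, which overlapped. Of its 50-base windows, 31.1% also occur in another gene, and its share of reads lost that way was not tested.

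The 9 accessory subunits of the peripheral arm had a median of -0.23, with 8 negative. Of them 2 were called (*Ndufs4* and *Ndufv3*), which is 22.2%, beside 12.4% of all genes called lower. *Ndufa7* was the exception in sign, with 35.8, 37.7 and 29.2 RPKM in KD and 35.3, 28.7 and 34.8 RPKM in controls. Its groups overlapped, and its log2 fold change of 0.05 had an adjusted p of 0.805 by limma. *Ndufa12*, which takes the place of the assembly factor *Ndufaf2* late in assembly, was 28.6, 34.9 and 34.0 RPKM in KD and 47.5, 33.4 and 39.9 RPKM in controls. Another gene shares 26.2% of its 50-base windows.

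The 7 core subunits had a median of -0.13, with 1 called (14.3%, beside 12.4% of all genes called lower) and 6 negative. *Ndufv2*, which holds an iron-sulfur cluster near the NADH site, was 24.9, 26.8 and 22.9 RPKM in KD and 26.7, 24.3 and 27.6 RPKM in controls. Its groups overlapped, with a log2 fold change of -0.07. *Ndufs3* was the core subunit with a positive value, 4.72, 3.84 and 3.40 RPKM in KD and 3.65, 3.07 and 4.03 RPKM in controls, and 39.7% of its windows are shared with other genes. The difference between role groups was not tested.

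Assembly factors ranged from below the filter to the level of some subunits. Of 7 *Ndufaf* genes, 6 were tested, 1 was called (*Ndufaf3*, 16.7%, beside 12.4% of all genes called lower), and the median was -0.19. *Ndufaf4*, the partner of *Ndufaf3*, was 9.07, 9.30 and 11.5 RPKM in KD and 11.8, 11.7 and 11.9 RPKM in controls. The groups did not overlap, although KD replicate 3 came close to the controls (log2 fold change -0.23, adjusted p 0.171 by limma). *Ndufaf5*, which hydroxylates the core subunit *Ndufs7*, was 0.811, 0.841 and 1.02 RPKM in KD and 1.40, 1.07 and 1.22 RPKM in controls (log2 fold change -0.24, adjusted p 0.116 by limma). *Ndufaf1*, part of the module that builds the membrane arm, and *Ndufaf2* had overlapping groups and log2 fold changes of -0.09 and -0.14. *Ndufaf2* spans 155909 bases, more than *Ndufs4*. *Ndufaf7*, a methyltransferase, had the highest log2 fold change of the tested members at 0.20. It was 3.52, 3.20 and 2.78 RPKM in KD and 2.49, 2.42 and 2.97 RPKM in controls, which overlapped (adjusted p 0.206 by limma). *Ndufaf6* was below the filter, with 0.547, 0.309 and 0.337 RPKM in KD and 0.475, 0.186 and 0.279 RPKM in controls.

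The remaining members are set apart by function. *Ndufab1*, the mitochondrial acyl carrier protein, also serves fatty acid synthesis. It was 3.01, 2.45 and 2.58 RPKM in KD and 2.74, 2.16 and 2.54 RPKM in controls, and the groups overlapped (log2 fold change 0.08, adjusted p 0.609 by limma). Of its 15 transcript rows, 3 had every KD library above every control, 0 had every KD library below, and the others overlapped. *Ndufa4* was first assigned to complex I and is now known as a subunit of complex IV. It was the second gene of the family by level, with 74.6, 63.4 and 72.8 RPKM in KD and 88.0, 69.4 and 81.8 RPKM in controls (log2 fold change -0.18, adjusted p 0.375 by limma). Its paralog *Ndufa4l2*, a target of the hypoxia response, had the largest standard error of the tested members. It was 16.2, 22.6 and 2.10 RPKM in KD and 25.2, 5.52 and 29.1 RPKM in controls. KD replicate 3 and control replicate 2 were the low libraries, and the log2 fold change of -0.68 had a standard error of 0.815 (adjusted p 0.565 by limma). Without KD replicate 3 its log2 fold change was 0.22.

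Of the complex I subunits encoded by mitochondrial DNA, 4 had rows in the table and 3 were tested. None was called, and none had an unadjusted p under 0.05 by limma. *ND5*, a proton-pumping subunit, was 266, 279 and 263 RPKM in KD and 276, 303 and 308 RPKM in controls. *ND6* was 234, 267 and 249 RPKM in KD and 241, 283 and 283 RPKM in controls. *ND4L* was 73.4, 51.6 and 63.5 RPKM in KD and 78.3, 60.7 and 63.5 RPKM in controls. All groups overlapped, and log2 fold changes were -0.13, -0.10 and -0.11. *ND3* was at most 0.739 RPKM in any library and was not tested. In *ND5* and *ND6* control replicate 2 lay close to control replicate 3.

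Assembly factors of complex I that carry other names were taken from a list of 11 genes, of which 10 had rows and 9 were tested. *Acad9*, an acyl-CoA dehydrogenase that works with *Ndufaf1* and *Ecsit*, was the 1 gene called lower (11.1%, beside 12.4% of all genes). None was called higher, beside 11.5% of all genes. *Acad9* was 2.42, 2.68 and 3.88 RPKM in KD and 6.01, 5.68 and 6.36 RPKM in controls. Its groups were clearly apart, with a log2 fold change of -0.83 ± 0.14 (SE) and an adjusted p of 0.00915 by limma, and it was called under 11 of 13 alternative settings. The calls were lost without control replicate 1 and without control replicate 3, where the list held 0 called genes. In these fits 2.47% and 2.04% of all genes were called lower. Without KD replicate 3, 4 were called, beside 17.8% of all genes called lower. The median of the list was -0.01, with 6 of 9 values negative, which is close to the median of all genes.

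Most genes of the other respiratory complexes also had a negative log2 fold change. The called counts below stand beside 12.4% of all genes called lower and 11.5% called higher. Complex II had 0 of 4 tested genes called and a median of -0.16. Complex III had 0 of 9 called, a median of -0.19 and 9 negative values. Complex IV had 0 of 14 called, a median of -0.20 and 13 negative values, with 2 genes at an unadjusted p under 0.05 by limma (14.3%, beside 38.9% of all genes) and none so in complexes II and III. Complex V was taken as all symbols starting with *Atp5*, which also takes in *Atp5c1-ps* and *Atp5sl*. It had 1 of 17 called (*Atp5s*, lower), a median of -0.16, 14 negative values and 2 genes at an unadjusted p under 0.05. *Atp5s* had a mean of 1.02 RPKM, close to the filter of 1 RPKM. Thus the median of -0.23 of the *Nduf* genes was close to those of complexes II to V, and the difference between complexes was not tested. Control replicate 2 was the lowest control in 4 of 4, 9 of 9, 14 of 14 and 14 of 17 genes of complexes II, III, IV and V.

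**Figure D4:**
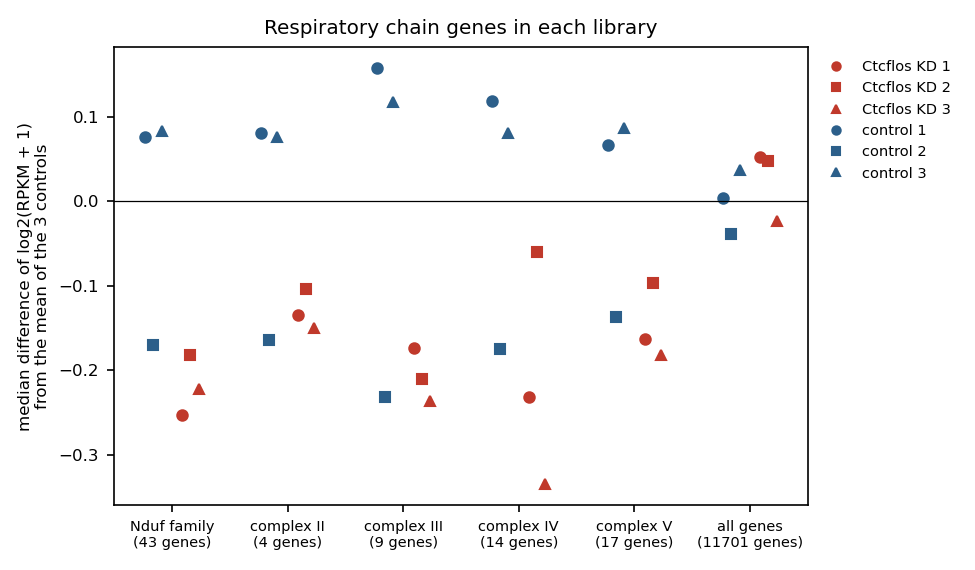
Median difference of log2(RPKM + 1) from the mean of the 3 controls (y axis) over the tested genes of each respiratory complex and of all genes (x axis), 1 point for each KD library (red) and control library (blue). For the *Nduf* genes the KD libraries lie at -0.25, -0.18 and -0.22, control 2 at -0.17, and controls 1 and 3 at 0.08.

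Nuclear genes of the respiratory chain are known to be driven by shared transcription factors, among them nuclear respiratory factor 1 (NRF1), ETS factors, YY1 and estrogen-related receptors (ERR). A promoter of 250 bases before to 50 bases after the start site was searched on both strands for 39 members with an entry in RefSeq (GRCm38.p6). The letters were GCGCNTGCG for NRF1, CCGGAAGT for ETS, AAGATGGCG for YY1 and TCAAGGTCA for ERR, where N is any base. A match describes letters and is no evidence of binding.

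The NRF1 letters occurred in 11 of 39 members (28.2%), beside 16.8% of the 6950 tested genes with a promoter entry and 6.31% of all promoters. Members and tested genes were counted once, with a match in any of their promoters, whereas the last share counts single promoters. None of the 6 called genes was among them. They were found for *Ndufa11*, *Ndufa12*, *Ndufa5*, *Ndufa6*, *Ndufa8*, *Ndufaf4*, *Ndufaf5*, *Ndufb10*, *Ndufb4*, *Ndufs5* and *Ndufs6*. Matches of 3 genes are shown, with the letters in capitals, because they illustrate a match on the strand of the gene (*Ndufa12*), on the other strand (*Ndufb10*) and overlapping on both (*Ndufaf4*).
Ndufa12: ctccagctctGCGCCTGCGtagaacgacct
Ndufb10: ctgcccactaCGCAGGCGCagctgtcacct
Ndufaf4: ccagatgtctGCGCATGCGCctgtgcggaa
They lie at chr10:94198905-94198934 (plus strand), chr17:24724430-24724459 (minus strand) and chr4:24897960-24897989 (plus strand). The first base of the match is at -120, -26 and -113 from the RefSeq start site, where 0 is the first transcribed base. In Gencode vM21 *Ndufa12* and *Ndufb10* begin further upstream, so that their matches lie inside the gene.

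The YY1 letters occurred in 5 of 39 members (12.8%), beside 4.27% of tested genes with a promoter entry and 1.40% of all promoters. All matches lay 22 to 35 bases after the RefSeq start site and had the same orientation as the gene. *Ndufs4* was the called gene among them, and the others were *Ndufa9*, *Ndufc1*, *Ndufs6* and *Ndufs7*. The 5 stretches are shown because the capitals mark letters that share place and orientation. These letters also contain ATG, and whether the matches cover the start of the coding sequence was not tested.
Ndufs4: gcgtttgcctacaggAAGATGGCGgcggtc
Ndufa9: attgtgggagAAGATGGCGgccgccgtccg
Ndufc1: cctgcggaacAAGATGGCGccgtccgtagt
Ndufs6: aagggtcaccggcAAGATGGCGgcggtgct
Ndufs7: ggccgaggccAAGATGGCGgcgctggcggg
They lie at chr13:114388045-114388074, chr6:126849096-126849125, chr3:51408914-51408943 and chr13:73328433-73328462 on the minus strand and at chr10:80249463-80249492 on the plus strand. Of these 5 genes, *Ndufs4* was called, and *Ndufa9* (log2 fold change -0.19), *Ndufc1* (-0.23), *Ndufs6* (-0.16) and *Ndufs7* (-0.21) were not.

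The ETS letters were found in 1 member, *Ndufs3* (2.56%, beside 10.5% of tested genes with a promoter entry and 3.89% of all promoters). The ERR letters were found in no member, beside 0.302% of tested genes with a promoter entry and 0.423% of all promoters. This says only that these exact letters are not in the window.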

How the data were processed

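The authors deposited RPKM values in a single table written with decimal commas, with a line for each RefSeq, Ensembl or GenBank transcript. Total RNA libraries (TruSeq Stranded kit) were sequenced in 150 bp paired-end reads. For the splice analysis of these libraries the study names STAR, GRCm38 and Gencode vM21. How the reads of the deposited table were aligned and counted is not given in the sources used here. Of 168326 lines, 305 exact repeats were removed. The file header does not name the unit, which was taken as RPKM because low values step by a unit that scales with transcript length. The number of per-sample columns not used was 0.

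The value of a gene was the mean RPKM over its rows. Overlapping rows share reads. Groups and replicate numbers came from the sample titles. The 11701 genes of mean RPKM at least 1 were tested with limma (trend) on log2(RPKM + 1), without covariates, with Benjamini-Hochberg adjustment across these genes. Fold changes on this scale understate those of low genes. Called means an adjusted p under 0.05. P-values measure the spread between 3 libraries against 3, which may be technical. An exact permutation test cannot go below p = 0.1 here, so none is printed. The fit was tested on simulated data.

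Depth was recovered from the values: for transcripts with a Gencode vM21 length, at least 96.1% of low values were whole multiples of 1 read within 0.1 reads. At this depth 1 read on 1 kb was worth 0.0126 to 0.0165 RPKM, which covers counting error only. Positions, overlaps and shared 50-base windows came from Gencode vM21 (GRCm38), promoters from RefSeq (GRCm38.p6), with chromosome 18 left out. The windows of a member were those of its longest coding transcript, compared with transcripts of other genes on both strands.

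1 member is counted with the others but not reported here by name. The members and lists were chosen with earlier results of these data known. Genes named were *Ctcflos*, the called members, the 5 of highest level, the 5 of log2 fold change closest to 0, *Ndufa3*, *Ndufs4*, *Ndufa4*, *Ndufa4l2*, *Ndufab1*, all *Ndufaf* and mitochondrially encoded genes and the called assembly factors of other names. *Ndufa12*, *Ndufs3*, *Ndufs5*, *Ndufb10*, genes with a promoter match, overlapping genes and *Atp5s* were added after values were seen, as were the motif letters. *Dmac2* is listed as *Atp5sl* and so also counts among the complex V symbols. Alternatives were another pseudocount, no filter or a stricter filter, median-of-ratios scaling, a replicate block, RefSeq rows, the highest row, limma without trend, and leaving out each library. Fits used limma 3.58.1 in R 4.3.3 with tables read by the data.table package (version 1.17.8). Sequences and figures used Python 3.11.15 with numpy 2.4.6, pandas 2.3.3 and matplotlib 3.10.9.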

Additional observations from a re-analysis of the deposited data

How the results depend on the processing

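The median log2 fold change of the *Nduf* genes was negative under all 14 alternatives, from -0.29 to -0.16, and no *Nduf* gene was called higher under any of them. The number of *Nduf* genes called lower, 6 as reported, was 1 without a filter on low values (2.22%, beside 2.76% of all genes), 2 with scaling by the median of ratios (4.65%, beside 12.7%), 2 with the replicate block (4.65%, beside 7.91%) and 1 to 8 when 1 library was left out. The number of assembly factors with other names called lower, 1 as reported, was 0 at a mean RPKM of at least 5, 3 with RefSeq rows and 0 to 4 when 1 library was left out. The number of genes called in complexes II to V, 1 as reported, was 0 at a mean RPKM of at least 5, 2 with the median of ratios, 2 with the replicate block, 2 without trend and 0 to 2 when 1 library was left out. *Ctcflos* kept its log2 fold change of -0.66 with the replicate block, where its adjusted p was 0.113, and ranged from -0.72 to -0.63 when 1 library was left out, with a highest adjusted p of 0.13. The cause of these differences was not tested. Samples with the same replicate number did not deviate together in every pair (correlations of 0.29, -0.29 and -0.42 for numbers 1, 2 and 3), so the numbers were not taken to pair them. Samples of unlike number were not compared in this way. Whether KD replicate 3 and control replicate 2, both low in *Ndufa4l2*, shared a culture or batch was not tested. Sign changes occurred in genes with values close to 0 and in *Ndufa4l2*. *Ndufab1* was -0.026 in its highest row. When 1 library was left out, *Ndufb4* ranged from -0.16 to 0.095, *Ndufa7* from -0.039 to 0.16, *Ndufa8* from -0.17 to 0.014, *ND4L* from -0.23 to 0.025 and *Ndufa4l2* from -1.38 to 0.22. Precision at low levels is limited by few reads, which bears on *Ndufs5*, *Ndufaf6*, *ND3* and *Ctcflos*.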
